A study of Saccharomyces cerevisiae with 4 samples.

Results

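The genes described here encode the machinery that copies yeast chromosomes and the ribonucleotide reductase that supplies its building blocks. They were chosen by systematic name from the deposited value table: the origin recognition complex, the MCM helicase, CDC6, CDC45, GINS and other firing factors, the polymerases and primase, replication protein A, PCNA and its loader, ligase and flap nuclease, topoisomerases, the CDC7 and DBF4 kinase, and RNR1 to RNR4. They number 49 of the 5500 reading frames listed. Of these, 34 had a value on all 4 arrays and entered the test, 12 had values on 1 to 3 arrays, and 3 (MCM6, POL1 and TOP2) had none. The 15 untested genes are 30.6% of the 49, against 30.2% of all frames.

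Polyadenylated RNA of a Saccharomyces cerevisiae strain labelled bre1 and of a strain labelled wild-type was hybridised together on 4 2-colour microarrays, so that each array gave 1 ratio per gene. BRE1 encodes the ubiquitin ligase that acts with Rad6 on histone H2B. The labels give neither the kind of bre1 mutation nor strain background, mating type, growth condition or cell cycle stage. Arrays 1 and 3 held bre1 RNA in Cy3 and wild-type RNA in Cy5, and arrays 2 and 4 the reverse. Whether RNA of separate cultures was used is not in the labels; the p-values rest on the differences among these 4 hybridisations, which may be technical.

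In budding yeast, the origin recognition complex marks origins through the cell cycle, and in G1 it loads the MCM helicase with the help of Cdc6. In S phase the Cdc7-Dbf4 kinase and cyclin-dependent kinase drive the joining of Cdc45 and GINS to the helicase, and polymerases alpha, delta and epsilon then copy the strands. Many of these genes are transcribed in late G1 under the factor MBF. Ribonucleotide reductase turns ribonucleotides into deoxyribonucleotides, and its genes are also induced by DNA damage. For RNR2, RNR3 and RNR4 this runs through the Mec1, Rad53 and Dun1 kinases, which relieve repression by Rfx1 (Crt1).

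The values are log2 ratios, read as bre1 over wild type. The log base and the turning of the arrays, which the labels do not give, could be read from the numbers themselves. On arrays 2 and 4, 2 raised to each value was a whole multiple of 1 step per array for 100% of values, within 0.05 of a step. On arrays 1 and 3 the same held for 100% of values only after the ratio was inverted. With natural or base 10 logs, or the other orientation, at most 13.6% were whole multiples. The ratios had thus been rounded before logs were taken, scaled by 1 factor per array, and inverted on the arrays with bre1 in Cy3 relative to those with bre1 in Cy5. All 4 arrays therefore run the same way. If the rounded ratio was Cy5 over Cy3, as scanner software commonly reports it, the deposited values are bre1 over wild type. BRE1 itself (YDL074C) had log2 ratios of -1.65 on array 1 and -3.17 on array 3 and no value on arrays 2 and 4. The direction is likely and not stated in the labels; on the other reading each rise would be a fall.

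Most tested replication genes had a mean log2 ratio over the arrays near 0. Of the 34 tested, 1 rose (RFA3, a subunit of replication protein A) and 1 fell (RNR1, the large subunit of ribonucleotide reductase). The test was limma's moderated test that the average log2 ratio is 0, with Benjamini-Hochberg adjustment over all 3840 tested genes and a threshold of 0.05. These 2 are 5.88% of the 34, against a background of 10.7% of all tested genes called (5.89% higher and 4.79% lower). At an unadjusted p under 0.05 there were 3 members (8.82%), DBF4 being the third, against 30.2% of all tested genes. The median log2 ratio of the 34 genes was 0.08, beside 0.02 for all tested genes, and it was 0.09, 0.21, -0.04 and 0.03 on arrays 1 to 4. The mean was above 0 for 19 genes and below 0 for 15. The median absolute mean was 0.166, beside 0.258 over all tested genes.

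The precision of the arrays sets how small a change could have been seen. The 95% interval of the mean log2 ratio had a median half-width of 0.375 for the 34 genes and 0.387 over all tested genes. For 30 of the 34 genes (88.2%) the interval lay within a 2-fold change either way, as it did for 82.7% of all tested genes. The intervals of RNR1, MCM7, DBF4 and RFA3 reached beyond it. For 19 genes the interval lay within 1.5-fold either way, and for the other 15 it held changes of that size. All 4 arrays had 1 sign for 10 of the 34 genes (29.4%), 4 above 0 and 6 below, against 35.7% of all tested genes.

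**Figure D1:**
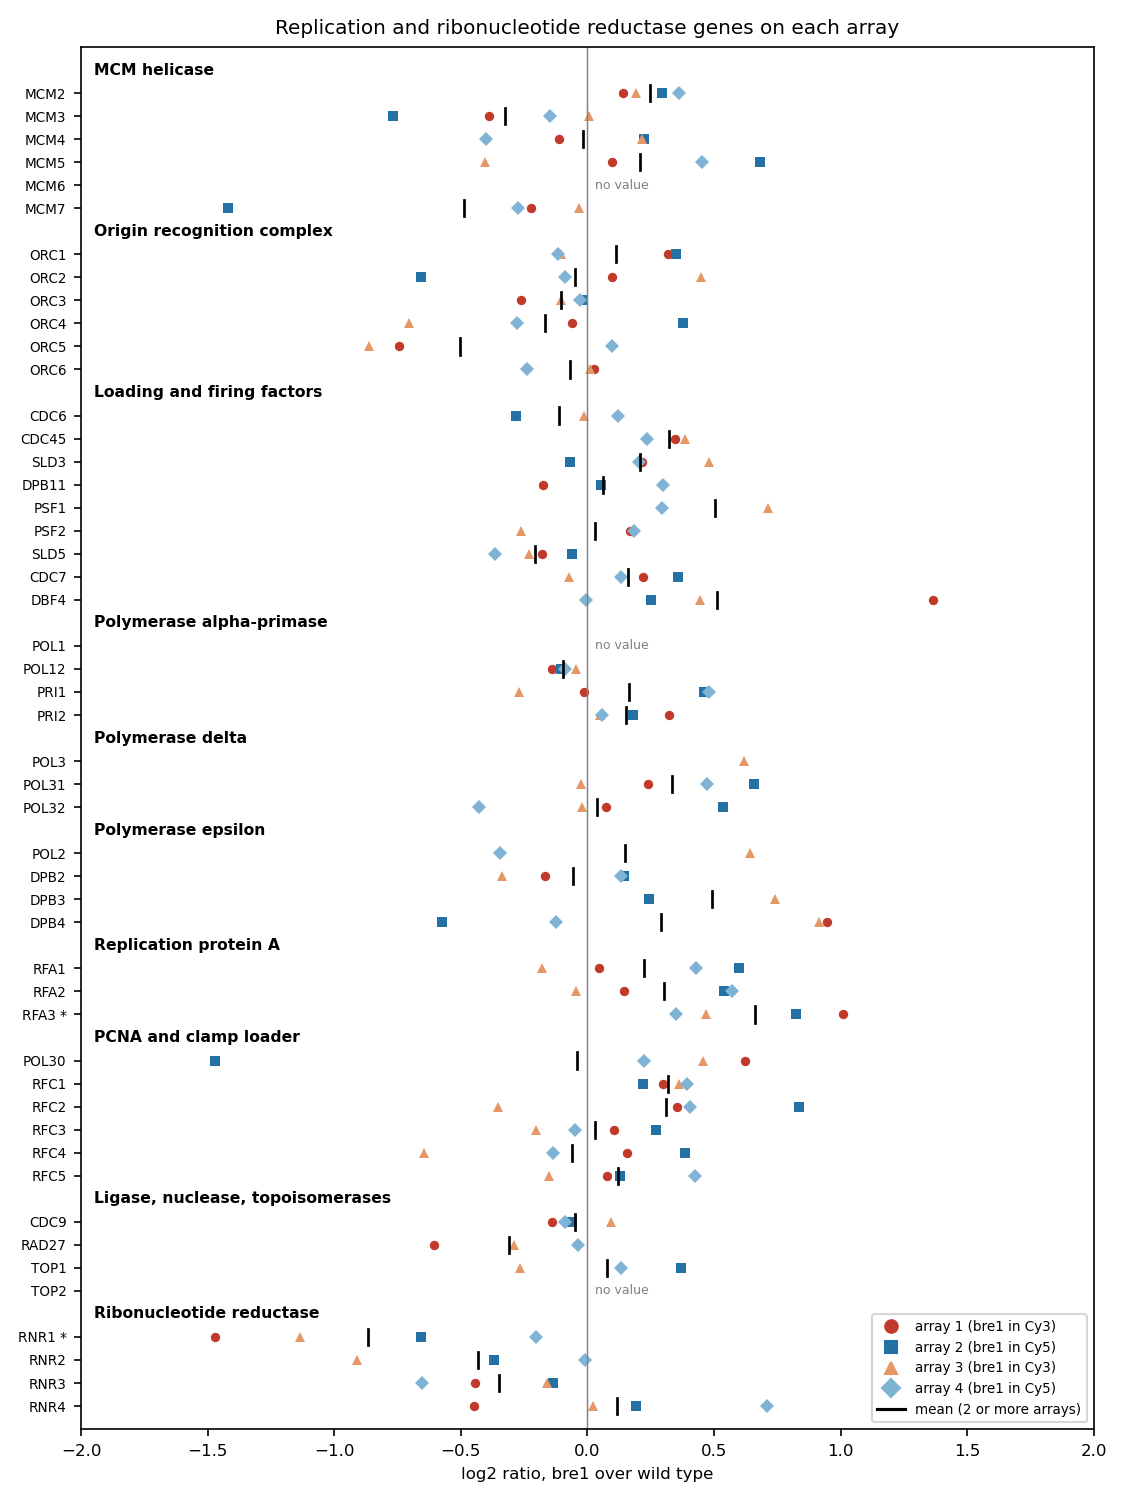
Log2 ratio of bre1 over wild type (horizontal axis) for each of the 49 genes, grouped by role. Each symbol is 1 array, the black bar is the mean where 2 or more arrays gave a value, and the 2 genes marked with an asterisk, RFA3 and RNR1, passed the threshold. RNR1 lies below 0 and RFA3 above 0 on all 4 arrays, while most other genes straddle 0.

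**Figure D2:**
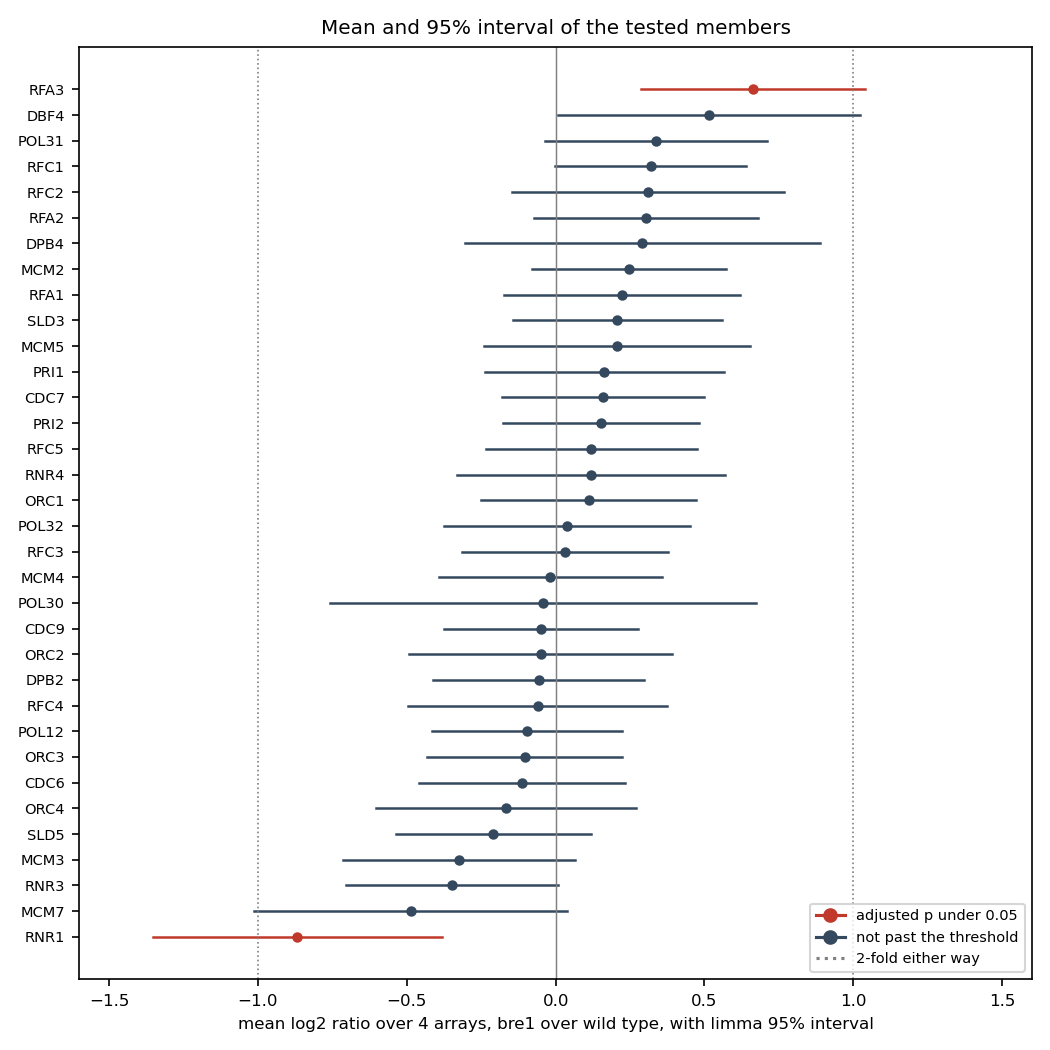
Mean log2 ratio over 4 arrays (points) and its 95% interval from limma (lines) for the 34 tested genes, ordered by mean, with dotted lines at a 2-fold change. Only the intervals of RNR1, MCM7, DBF4 and RFA3 cross a dotted line.

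Of the 4 ribonucleotide reductase genes, RNR1, RNR2 and RNR3 lay below 0 on every array with a value. RNR4 lay on both sides of 0, and differences among the 4 genes were not tested. RNR1 (YER070W) encodes the main large, catalytic subunit. Its log2 ratios were -1.47, -0.66, -1.13 and -0.20 on arrays 1 to 4. All 4 arrays showed less RNR1 transcript in bre1, and both arrays with bre1 in Cy3 gave larger falls than those with bre1 in Cy5. The mean was -0.87 ± 0.55 (SD, n = 4 arrays; 95% interval -1.35 to -0.38), or 1.82-fold lower in bre1, with a limma adjusted p of 0.038. Among all 3840 tested genes, 102 had a mean as low or lower, RNR1 included. The call was lost without array 1, 2 or 3 (adjusted p = 0.147, 0.121 and 0.106), with means of -0.67, -0.94 and -0.78, and held without array 4.

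RNR3 (YIL066C) encodes the alternative large subunit, scarce in undamaged cells and strongly induced by DNA damage. It had log2 ratios of -0.44, -0.14, -0.16 and -0.65 on arrays 1 to 4. It too lay below 0 on all 4 arrays, with a mean of -0.35 ± 0.25 (SD, n = 4; limma adjusted p = 0.174), and did not pass. RNR1 and RNR3 are related in sequence, and whether the RNR3 signal holds part of the RNR1 transcript was not tested.

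The small subunit is a pair of the Rnr2 and Rnr4 proteins. RNR2 (YJL026W), whose product holds the iron centre and the tyrosyl radical, had no value on array 1. Its log2 ratios on arrays 2, 3 and 4 were -0.37, -0.91 and -0.01, with a mean of -0.43 ± 0.45 (SD, n = 3). RNR4 (YGR180C), whose product has no radical of its own and is needed to fold and activate Rnr2, had log2 ratios of -0.45, 0.19, 0.02 and 0.71 on arrays 1 to 4. Its mean was 0.12 ± 0.48 (SD, n = 4; limma adjusted p = 0.728), so its values lay on both sides of 0. On each array the log2 ratio of RNR4 exceeded that of RNR1, by 1.02, 0.85, 1.16 and 0.91. This difference was noticed in the values and not tested.

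Replication protein A, which coats single-stranded DNA, is a complex of 3 subunits. RFA3 (YJL173C), the smallest, had log2 ratios of 1.01, 0.82, 0.47 and 0.35 on arrays 1 to 4. All arrays showed a higher level in bre1, with a mean of 0.66 ± 0.31 (SD, n = 4; 95% interval 0.29 to 1.04), or 1.58-fold, and a limma adjusted p of 0.0394. The call was lost without array 1, 2 or 3 (adjusted p = 0.182, 0.154 and 0.0713), with means of 0.55, 0.61 and 0.73. RFA1, the large DNA-binding subunit, had log2 ratios of 0.05, 0.60, -0.18 and 0.43, and RFA2, the subunit phosphorylated in the cell cycle and after damage, 0.14, 0.54, -0.04 and 0.57. Neither passed, with means of 0.22 ± 0.35 and 0.30 ± 0.30. Both were highest on the arrays with bre1 in Cy5, lower on array 1 and below 0 on array 3.

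RFA3 is also a short gene, 369 bp in the gene table, and the only tested member of at most 500 bp. The 294 tested genes of that length had a median log2 ratio of 0.36, with 61 called higher and 8 lower, and 72 of them had a mean at or above that of RFA3. The part of gene length in the RFA3 ratio was not tested. Tested members of over 2000 bp numbered 14, with a median of -0.03 beside -0.05 for all 866 tested genes of that length. In the classes from 500 to 1000, 1000 to 1500 and 1500 to 2000 bp the members' medians were -0.04, 0.12 and -0.05. Those of all tested genes in these classes were 0.13, -0.02 and -0.06.

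Among the 6 genes of the origin recognition complex, which binds origins and recruits the helicase, none of the 4 tested passed. ORC4 had the smallest p of them, with log2 ratios of -0.06, 0.38, -0.71 and -0.28 on arrays 1 to 4, which fall on both sides of 0. The means of ORC1, ORC2, ORC3 and ORC4 lay between -0.17 and 0.11. ORC3 was the steadiest, with values between -0.26 and -0.02. ORC5 was measured on arrays 1, 3 and 4, at -0.74, -0.86 and 0.10, so its low values come from the arrays with bre1 in Cy3. ORC6 gave 0.02, 0.01 and -0.24 on the same arrays.

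The MCM genes, whose products form the ring of the replicative helicase, had means on both sides of 0, and none of the 5 tested passed. MCM7 (YBR202W) had log2 ratios of -0.22, -1.42, -0.03 and -0.28 on arrays 1 to 4, with a mean of -0.49 ± 0.63 (SD, n = 4; limma adjusted p = 0.191). All were below 0, and array 2 alone was far below. MCM3 had values of -0.39, -0.77, 0.01 and -0.15, with a mean of -0.32 ± 0.34. MCM2 had values between 0.14 and 0.36 on all 4 arrays, a mean of 0.25 ± 0.10 and an adjusted p of 0.278. The means of MCM4 and MCM5 were -0.02 and 0.21, each with arrays on both sides of 0.

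Of the 9 loading and firing genes, 5 were tested and none passed. DBF4 (YDR052C), the regulatory subunit of the kinase that activates the loaded helicase, had log2 ratios of 1.36, 0.25, 0.45 and -0.0047 on arrays 1 to 4. Its mean of 0.51 ± 0.60 (SD, n = 4; limma adjusted p = 0.161) rested mainly on array 1. CDC7, the catalytic subunit of the same kinase, had values between -0.07 and 0.36 and a mean of 0.16 ± 0.18. CDC6, the helicase loader, had a mean of -0.11, and SLD3, a firing factor that binds Cdc45, one of 0.21.

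CDC45, a helicase subunit, was measured on 3 arrays, at 0.35, 0.39 and 0.23 on arrays 1, 3 and 4. These values lay close together, with a mean of 0.32 ± 0.08 (SD, n = 3). In the fit that took genes with values on at least 3 arrays its adjusted p was 0.274. GINS is the remaining part of the active helicase: SLD5 was below 0 on all 4 arrays, between -0.36 and -0.06 (mean -0.21 ± 0.13). PSF1 gave 0.71 on array 3 and 0.29 on array 4, and PSF2 0.17, -0.26 and 0.18 on arrays 1, 3 and 4. DPB11, which joins the firing factors, gave -0.17, 0.06 and 0.30 on arrays 1, 2 and 4.

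Polymerase alpha-primase, which lays the RNA-DNA primers, was represented by POL12, PRI1 and PRI2, since its catalytic gene POL1 had no value. POL12 had the smallest spread of all 34 genes, with values between -0.14 and -0.05 (mean -0.10 ± 0.04; 95% interval -0.41 to 0.22). PRI2, the large primase subunit, had values of 0.32, 0.18, 0.05 and 0.06. PRI1, the catalytic primase subunit, was at -0.01 and -0.27 on arrays 1 and 3 and at 0.46 and 0.48 on arrays 2 and 4. None of these 3 genes passed.

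Polymerase delta, which copies the lagging strand, and polymerase epsilon, assigned to the leading strand, had catalytic genes measured on few arrays. POL3 had 1 value, 0.62 on array 3, and POL2 had 0.64 on array 3 and -0.35 on array 4. POL31, the middle subunit of polymerase delta, had values of 0.24, 0.66, -0.02 and 0.47 (mean 0.34 ± 0.29; limma adjusted p = 0.203). POL32, its smallest subunit, had a mean of 0.04 ± 0.40. DPB2, the essential second subunit of polymerase epsilon, had a mean of -0.06 ± 0.24. DPB3, a histone-fold subunit, gave 0.24 and 0.74 on arrays 2 and 3.

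DPB4, the other histone-fold subunit of polymerase epsilon, had log2 ratios of 0.95 and 0.92 on arrays 1 and 3 and -0.57 and -0.12 on arrays 2 and 4. The mean over all 4 was 0.29 ± 0.76. The difference between the dye orientations did not pass in a limma fit with a dye term (adjusted p = 0.112).

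POL30 encodes PCNA, the sliding clamp, and is singled out here because it had the largest spread of the 34 genes, after its values were seen. Its log2 ratios were 0.62, -1.47, 0.46 and 0.22 on arrays 1 to 4, so array 2 stood far below the others. The mean was -0.04 ± 0.97, and 0.43 without array 2. The clamp loader is made of 5 subunits. RFC1 (YOR217W), the large one, had values of 0.30, 0.22, 0.36 and 0.39, above 0 on every array, and a mean of 0.32 ± 0.08 (SD, n = 4; 95% interval -0.0032 to 0.64). Its limma adjusted p of 0.168 rests on a variance shared in part with other genes, which is larger than its own. RFC2 had a mean of 0.31 ± 0.49, and RFC3, RFC4 and RFC5 had means of 0.03, -0.06 and 0.12.

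CDC9, the ligase that seals Okazaki fragments, had values of -0.14, -0.06, 0.09 and -0.09, all near 0 (mean -0.05 ± 0.10; 95% interval -0.37 to 0.28). RAD27, the flap nuclease of the same step, gave -0.61, -0.29 and -0.04 on arrays 1, 3 and 4. TOP1, which relieves supercoils, gave 0.37, -0.27 and 0.13 on arrays 2, 3 and 4. In the fit that took genes with values on at least 3 arrays, none of the 8 members with exactly 3 values passed (0 also at an unadjusted p under 0.05), and their adjusted p-values lay between 0.201 and 0.93.

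The dye-swapped design allowed each gene to be compared between orientations. With a dye term in the limma fit, none of the 34 members passed for a difference between orientations, against a background of 0.104% of all tested genes. At an unadjusted p under 0.05 there were 5 members (14.7%), against 19.1% of all tested genes: RNR1, MCM5, PRI1, DPB4 and POL30. Arrays with bre1 in Cy3 gave a mean log2 ratio of -1.30 for RNR1 and those with bre1 in Cy5 one of -0.43. The means were -0.15 and 0.57 for MCM5, -0.14 and 0.47 for PRI1, 0.93 and -0.35 for DPB4, and 0.54 and -0.62 for POL30, each of opposite sign. In all, 13 of the 34 members (38.2%) had opposite signs in the orientations, beside 37.0% of all tested genes. RFA3 had means of 0.74 and 0.59. With the dye term the mean log2 ratio itself passed for RFA3 (adjusted p = 0.021) and RNR1 (0.00915), still 2 of 34 members, while the background rose to 23.4% of tested genes.

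**Figure D3:**
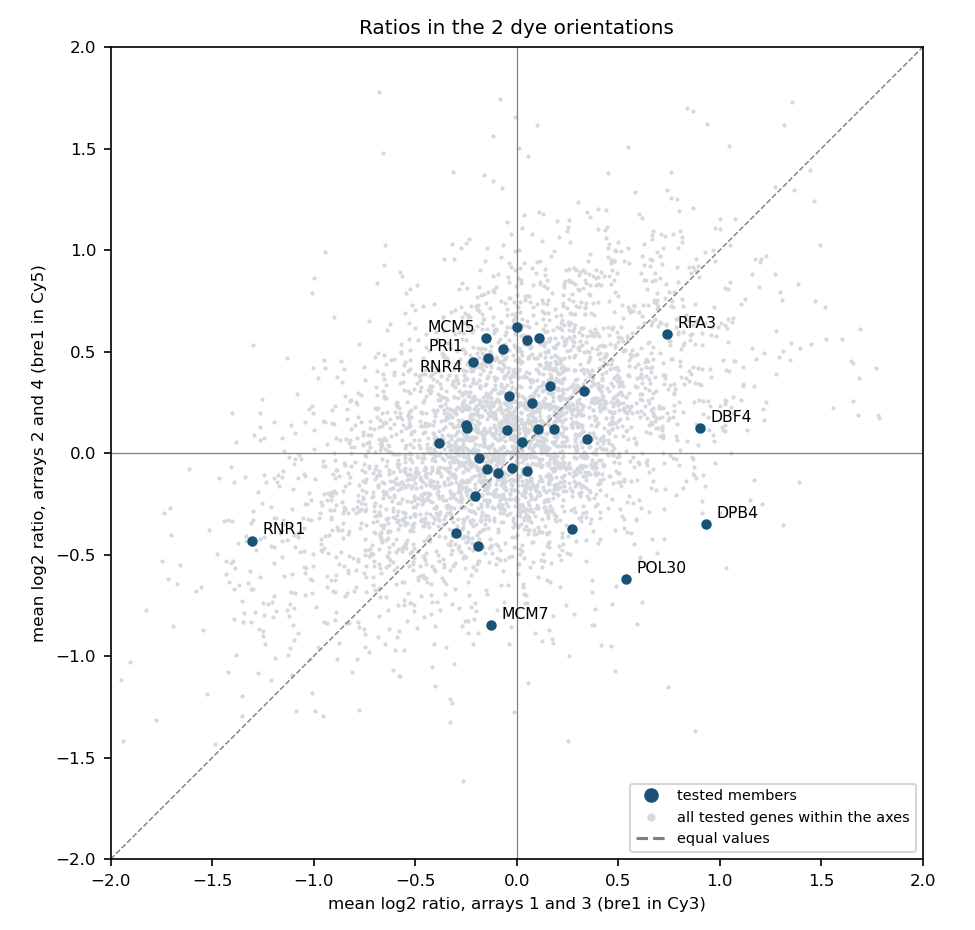
Mean log2 ratio on arrays 1 and 3 (bre1 in Cy3, horizontal axis) against arrays 2 and 4 (bre1 in Cy5, vertical axis) for the 34 tested members (dark) over all tested genes that lie within the axes (grey), with the line of equal values dashed. RFA3 and RNR1 have the same sign in both orientations, whereas DPB4 and POL30 lie in the quadrant of opposite signs.

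Of 17 further replisome and origin genes, 10 were tested and none passed (0 also at an unadjusted p under 0.05), with a median log2 ratio of 0.05. The smallest p-values were those of PSF3, the remaining GINS subunit (0.37 ± 0.29), and RRM3, a helicase that helps forks past bound proteins (0.23 ± 0.13).

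Of 16 genes of deoxyribonucleotide supply and its control, 13 were tested and 1 passed, against the background of 10.7%. At an unadjusted p under 0.05, 5 were higher, against 16.2% of all tested genes. A mean above 0 was seen in 11 of the 13, beside 2021 of all 3840 tested genes, and the median was 0.25. With the dye term 3 were higher, DUT1, CDC21 and YNK1 (nucleoside diphosphate kinase), as were 12.4% of all tested genes. DUT1 (YBR252W), the dUTPase, rose on all 4 arrays, at 0.89, 0.67, 0.36 and 0.61, or 1.55-fold (limma adjusted p = 0.0372). CDC21, the thymidylate synthase, had a mean of 0.52 ± 0.28 and an adjusted p of 0.0702. RFX1, the repressor of RNR2, RNR3 and RNR4, had a mean of -0.22 ± 0.18. DUN1, a kinase that relieves this repression, had one of 0.37 ± 0.30, and neither passed. The tested genes of this list had a median length of 651 bp, against 1296 bp over all tested genes. DUT1 itself is 444 bp long, and the median log2 ratio of tested genes of at most 500 bp was 0.36. The part of length was not tested.

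The cultures' cell cycle stage bears on these genes, and RNA from a whole culture cannot tell fewer cells in a phase from less transcript per cell. Of 7 tested regulators of the G1 to S transition none passed, and 1 had an unadjusted p under 0.05, against 30.2% of all tested genes. That gene, CLN3, was lower with the dye term (adjusted p = 0.0381), as were 10.9% of all tested genes. CLN3, the G1 cyclin that starts the transition, had a mean of -0.51 ± 0.39 (limma adjusted p = 0.0991), and WHI5, a repressor of the G1 to S factor SBF, -0.36 ± 0.27. Of 11 tested markers of the G1 to S transition 1 passed, TOS4, against 10.7% of all tested genes, and the list's median was 0.08. At an unadjusted p under 0.05, 2 were higher and 2 lower, against 16.2% and 13.9% of all tested genes. TOS4 (YLR183C), which encodes a chromatin protein with a forkhead-associated domain, was 1.93-fold higher, with values between 0.71 and 1.24.

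Among the 8 histone genes, all tested, 1 passed, against 10.7% of all tested genes. This was HHF2, 1.68-fold higher, and the list's median was 0.21. These genes had a median length of 397.5 bp, and the median of tested genes of at most 500 bp was 0.36; the part of length was not tested. None of 8 tested G2 to M markers passed, with a median of 0.23. At an unadjusted p under 0.05, 2 were higher, against 16.2% of all tested genes. These were BUD4 and IQG1, with means of 0.54 ± 0.29 and 0.36 ± 0.18. BUD4 was higher with the dye term (adjusted p = 0.0246), as were 12.4% of all tested genes. Of 8 tested markers of the exit from mitosis and early G1, 3 fell: CTS1, DSE2 and EGT2, whose products act in separating daughter cells, were 2.51-fold, 2.42-fold and 1.66-fold lower (median -0.43). The background was 4.79% of all tested genes called lower. SIC1, PCL9 and ASH1 of the same list had means of 0.15, -0.06 and -0.17, and none of them passed. On arrays 1 to 4, CTS1 had log2 ratios of -2.34, -0.53, -2.05 and -0.40. Those of DSE2 were -2.22, -1.46, -1.16 and -0.25, and those of EGT2 -1.14, -0.61, -0.99 and -0.17. For a difference between dye orientations 1 of the 8 genes passed, against 0.104% of all tested genes. This was PIR1, at 1.72, -2.12, 1.19 and -2.28 on arrays 1 to 4. Its mean of -0.37 ± 2.12 joins values of opposite sign in the orientations. With the dye term 4 fell, FAA3 being the fourth, against 10.9% of all tested genes. These phase lists stood beside members whose median was 0.08, and their part in the RNR1 and RFA3 ratios was not tested. Without array 2 limma called 0 genes of the whole table (815 at an unadjusted p under 0.05), so none of the calls in these lists held without that array.

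**Figure D4:**
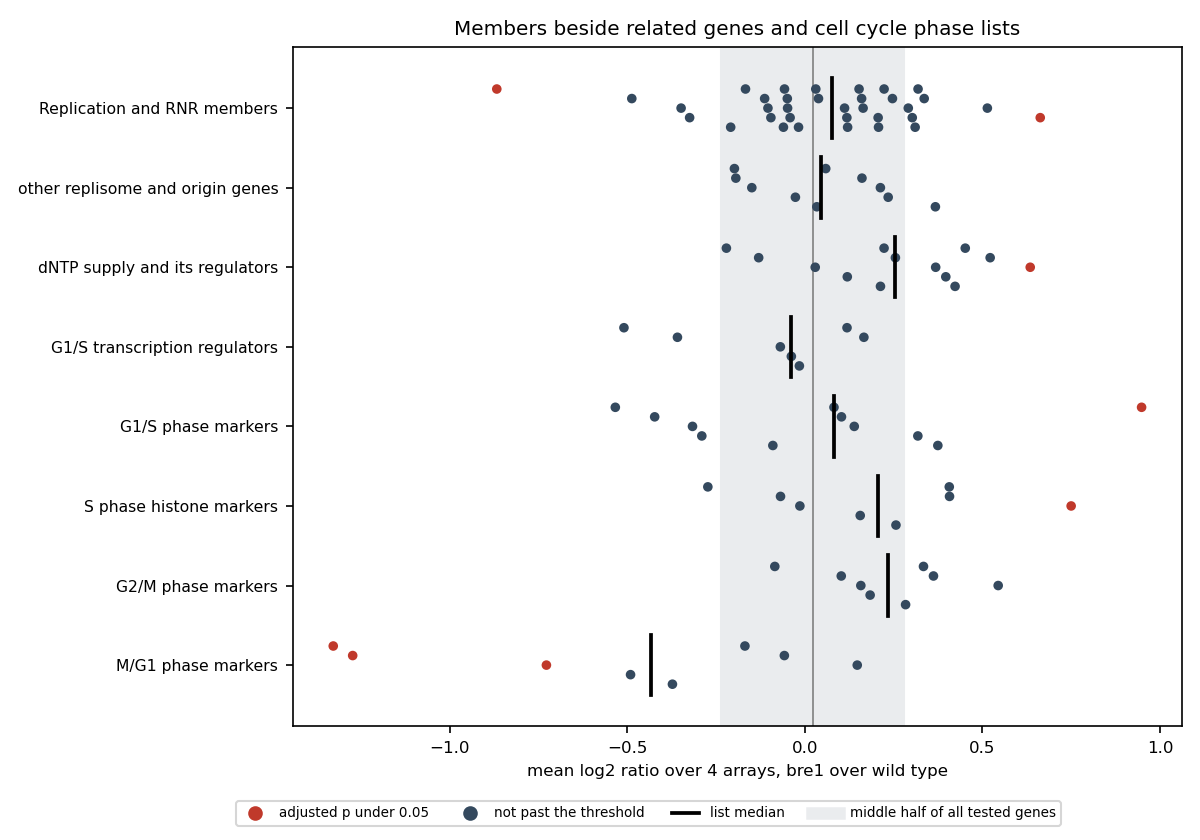
Mean log2 ratio over 4 arrays (horizontal axis) of the tested genes in each list, with the list median as a black bar, genes past the threshold in red, the interquartile range of all tested genes as a grey band and their median as a grey line. The replication members centre on 0.08, the deoxyribonucleotide supply genes on 0.25 and the markers of mitotic exit on -0.43. Means of the mitotic exit markers run from -1.33 (CTS1) to 0.15 (SIC1).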

How the data were processed

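The deposited table holds log2 ratios of 4 2-colour arrays, 1 per reading frame and array, as the authors made them; background correction and spot filter are unknown (not given in the sources used here). The rounded steps in the values show base 2, 1 scale factor per array and ratios inverted on arrays 1 and 3. A correction that varies with intensity would have removed such steps if made after the rounding. One made before the rounding would not show in them. Scanner signals were not used here, so dim spots could not be filtered. The number of arrays limits the precision. Column medians were -0.02, 0.07, -0.05 and 0.07 for arrays 1 to 4; how the authors centred the arrays is unknown.

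Names came from a RefSeq gene table of assembly R64, which matched 5470 of 5500 frames, all 49 members among them. The table of values names no build, so no coordinates are printed, and no sequences were used here. Genes with values on all 4 arrays (3840) were fitted with limma 3.58.1 under R 4.3.3, with an intercept alone (lmFit, then eBayes), a two-sided test against 0, and Benjamini-Hochberg adjustment over all of them. Intervals are limma's, not adjusted for the number of genes. A second fit added a dye term. The fits were tested on simulated data. The members and lists were chosen with earlier results of these data known. Values by array are given for members past the threshold, the 8 with the largest absolute mean, RNR1 to RNR4, the smallest p of each role and members with 1 to 3 values; other members by mean or range. From the further lists, genes past the threshold are named, or the 2 with the smallest p. CDC21, RFX1, DUN1, SIC1, PCL9, ASH1 and genes that passed with the dye term alone were added after their values were seen. So were the values by array of RFA1, RFA2, PRI1, POL30, CTS1, DSE2, EGT2 and PIR1. A further gene was left out of these lists and is not reported here.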

Additional observations from a re-analysis of the deposited data

How the results depend on the processing

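The 2 calls among the members, RNR1 and RFA3, held with a dye term, with each array centred on its median, with quantile normalization, with genes on at least 3 arrays, with array weights and with a robust variance prior. In these 6 settings RNR1 ranged from -0.97 to -0.83 (adjusted p 0.00915 to 0.0418) and RFA3 from 0.64 to 0.72 (0.0207 to 0.0445). Leaving out 1 array at a time, the count of members called ran from 0 to 2, being 0 without array 1, 2 or 3; RNR1 ran from -1.09 to -0.67 and RFA3 from 0.55 to 0.77. The count over all genes, 410, ran from 0 (without array 2, with 815 at an unadjusted p under 0.05) to 677 (without array 4), and was 897 with the dye term and 685 with array weights. The members' median ran from 0.0352 to 0.11 without 1 array and from 0.0346 to 0.08 in the other settings. The test for a dye difference was run on all 4 arrays, without each array, with centred arrays and with genes on at least 3 arrays. It called 0 members in each of these except without array 4, where it called 1, POL30.

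Of 136 member values without 1 array, 10 changed sign, all in members with a mean within 0.17 of 0. Their ranges were -0.0986 to 0.11 for MCM4, -0.22 to 0.15 for ORC2, -0.35 to 0.0123 for ORC4, -0.13 to 0.19 for POL32, -0.12 to 0.0355 for DPB2, -0.26 to 0.43 for POL30, -0.0495 to 0.11 for RFC3, -0.21 to 0.14 for RFC4 and -0.0789 to 0.31 for RNR4. Of 204 values in the other settings 1 changed sign, MCM4 with array weights (0.0135). The cause of these changes was not tested. No paired analysis was possible because all arrays form 1 group; each ratio already sets bre1 beside wild type on the same array.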

Other observations

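The spread of the members was shared unevenly between arrays. Across the 34 tested members, Pearson's r was 0.67 between arrays 1 and 3 and 0.38 between arrays 2 and 4, which share a dye orientation. It was 0.25, 0.24 and 0.12 for arrays 1 and 2, 1 and 4, and 3 and 4, and -0.21 for arrays 2 and 3. Over all 3840 tested genes the same pairs gave 0.76, 0.54, 0.65, 0.24, 0.20 and 0.31. Genes are not independent replicates, so these values only describe the arrays, and arrays of 1 orientation share any dye bias of a gene.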
